A study of Mus musculus with 10 samples.

Results

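The genes described here are the Wnt ligands, their receptors, their secreted antagonists and the core of the beta-catenin branch in the mouse. The rule that picked them used gene symbols: Wnt followed by a digit, Fzd, Sfrp, Dkk1 to Dkk4, Lrp5 and Lrp6, Axin1 and Axin2, Tcf7 and its relatives, Lef1, and Ctnnb1. This gave 46 of the 20807 protein-coding genes of chromosomes 1 to 19 in GENCODE release M21. They comprised 19 Wnt ligands, 10 Frizzled receptors, 2 Lrp co-receptors, 8 secreted antagonists, beta-catenin with the 2 Axins, and 4 TCF/LEF factors.

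Binding of RBPJ, the DNA-binding factor through which Notch receptors act on genes, was mapped by ChIP-seq, the sequencing of DNA that an antibody brings down with its chromatin, in RD1 cells, labelled as mouse brain pericytes and kept untreated in pericyte medium on collagen I. The series holds RBPJ, H3K4me1, H3K4me3, histone H3 and input, with 2 replicates each, and of these 10 samples the 2 RBPJ samples were used and 8 were not analysed here. Both RBPJ files held the same 11094 peaks, byte for byte, so they counted as 1 list. A peak is a start and an end in GRCm38 coordinates, with no height, score or depth, which left no spread between replicates. The study grew pericytes from brains of young adult mice homozygous for a floxed Rbpj allele (Rbpj lox/lox), and the labels give neither a genotype nor an age for RD1. Binding is not expression, so the identity of the cells could not be checked from these data. Of 9 pericyte marker genes 5 had an assigned peak (55.6%), as did 5 of 7 endothelial marker genes (71.4%), beside 48.4% of all genes of chromosomes 1 to 19.

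Wnt proteins are secreted lipid-modified ligands that bind Frizzled receptors together with the co-receptors Lrp5 or Lrp6. In the canonical branch this stops the Axin scaffold from marking beta-catenin for breakdown, and beta-catenin then joins TCF/LEF factors on DNA. In the brain, Wnt signals received by endothelial cells drive vessel growth and the blood-brain barrier. Sfrp proteins block the pathway by holding Wnt ligands, and Dkk proteins such as Dkk1 by holding Lrp co-receptors.

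A peak was assigned to a gene when its centre lay in the gene body or in the gene's regulatory domain. That domain runs from 5 kb upstream to 1 kb downstream of the gene's 5′ end, the basal part, and is extended in both directions to the basal part of the next gene by at most 1 Mb. A promoter peak had its centre within 1 kb of any annotated start of a protein-coding transcript of the gene. RBPJ binds the core TGGGAA, and TCF/LEF factors bind the core CTTTGA.

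The sequences shown here are stretches of the GRCm38 reference around such cores in promoter peaks, chosen because most receptor, co-receptor and intracellular genes had a peak there, with the core in capitals and 30 bases to either side. They were read 5′ to 3′ on the strand that carries the core, and none overlapped an annotated UTR. The Tcf7l1 stretches lie upstream of the gene at chr6:72789458-72789523 (plus strand) and chr6:72789557-72789622 (minus strand). The Lrp5 stretches lie in an intron at chr19:3685998-3686063 and chr19:3686047-3686112 (both minus strand). The Axin1 stretch, chr17:26138359-26138424 (minus strand), and the Fzd5 stretch, chr1:64738489-64738554 (minus strand), lie outside protein-coding genes.
Tcf7l1, nearer to the gene: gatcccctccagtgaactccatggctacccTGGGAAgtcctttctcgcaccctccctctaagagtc
Tcf7l1, farther from the gene: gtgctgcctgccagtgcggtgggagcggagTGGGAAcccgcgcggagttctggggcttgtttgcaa
Lrp5, deeper in the intron: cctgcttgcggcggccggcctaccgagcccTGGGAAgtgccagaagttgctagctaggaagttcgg
Lrp5, nearer to the start: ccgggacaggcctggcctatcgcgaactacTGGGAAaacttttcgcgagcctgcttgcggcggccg
Axin1: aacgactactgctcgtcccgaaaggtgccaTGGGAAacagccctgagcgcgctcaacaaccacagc
Fzd5: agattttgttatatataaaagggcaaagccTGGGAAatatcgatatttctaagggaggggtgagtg

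The promoter peak of Axin2, a feedback inhibitor and a standard target gene of Wnt signalling, held 0 TGGGAA and 4 CTTTGA cores. A pair of them lies in an intron near the centre of the peak, at chr11:108921202-108921267 on the plus strand, with both cores in capitals. The Wnt5a stretch, chr14:28507253-28507318 (plus strand), and the Ctnnb1 stretch, chr9:120935396-120935461 (minus strand), lie in introns under peaks of the gene body, and are shown because they belong to the widest peak of each gene. Their cores lie 1071 bp (Wnt5a) and 450 bp (Ctnnb1) from the peak centre, so they need not be the DNA that RBPJ contacts.
Axin2, 2 CTTTGA cores: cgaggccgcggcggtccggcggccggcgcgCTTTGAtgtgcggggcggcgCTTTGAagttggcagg
Wnt5a, TGGGAA core: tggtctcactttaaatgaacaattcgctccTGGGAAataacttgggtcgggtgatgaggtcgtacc
Ctnnb1, TGGGAA core: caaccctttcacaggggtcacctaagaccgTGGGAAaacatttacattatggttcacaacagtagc

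Of the 46 genes, 29 had at least 1 RBPJ peak (63.0%, 95% exact binomial interval 47.5 to 76.8). Among all genes of chromosomes 1 to 19 the share was 48.4%. A promoter peak was present at 12 genes (26.1%, interval 14.3 to 41.1), beside 28.6% of all genes. A peak in the basal domain was present at 14 genes (30.4%), beside 28.3%, and a peak in the gene body at 13 genes (28.3%), beside 26.3%. The promoter, basal and gene body shares were thus close to those of all genes. The domains were long: their median was 210 kb for the 46 genes and 86.2 kb for all genes. Given the number of peaks on each chromosome and the length of the domains, 73.9 peaks would fall in them at even density, and 73 did. Among the 46 genes the median domain was 253 kb for those with a peak and 113 kb for those without, and among all genes 120 and 65.0 kb. How far domain length accounts for the share of genes with a peak was not tested.

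**Figure D1:**
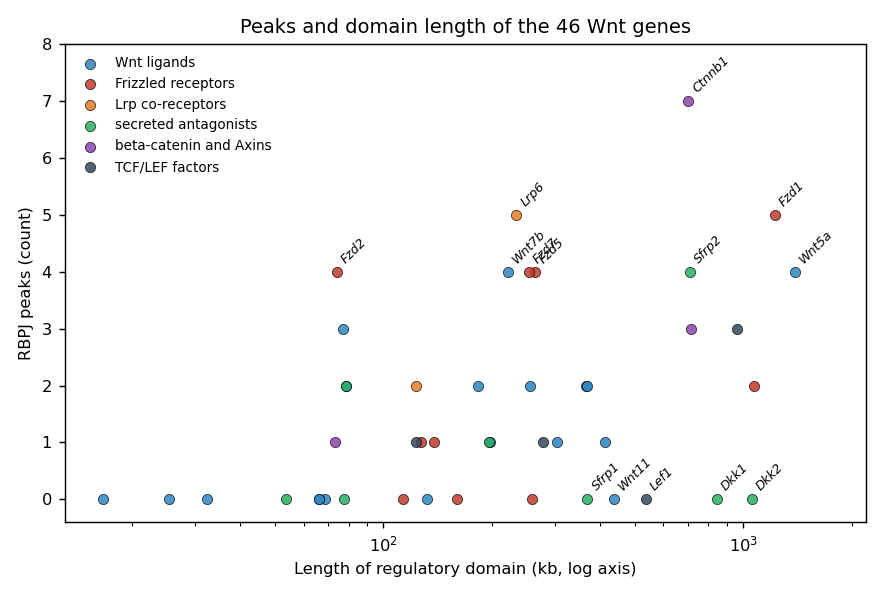
Number of RBPJ peaks assigned to each of the 46 Wnt genes (vertical axis) against the length of its regulatory domain in kb (horizontal log axis). Each point is a gene, coloured by role; genes with at least 4 peaks, and those without a peak whose domain exceeds 300 kb, are named. Fzd2 had 4 peaks in a domain of 74.3 kb, whereas Dkk2 had 0 in 1059 kb.

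Within the 46 genes, promoter peaks were unevenly spread over the roles. For all genes of chromosomes 1 to 19 the share with a promoter peak was 28.6%. Among the receptors, co-receptors and intracellular members, 11 of 19 genes had a promoter peak (57.9%, interval 33.5 to 79.7). Among the secreted members, that is ligands and antagonists, 1 of 27 did (3.70%, interval 0.0937 to 19). This grouping was made after the values were seen and was not tested. Counting every peak that overlapped the 2 kb around a start, whatever its centre, gave 13 of 19 and 3 of 27 genes. By that count the share of all genes was 30.4%. The median GC content of the 500 bp around the 5′ end was 70.1% for the 19 genes and 65.7% for the 27, and among all genes 63.9% for those with a promoter peak and 54.5% for those without. The part of GC content in the difference between roles was not tested.

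**Figure D2:**
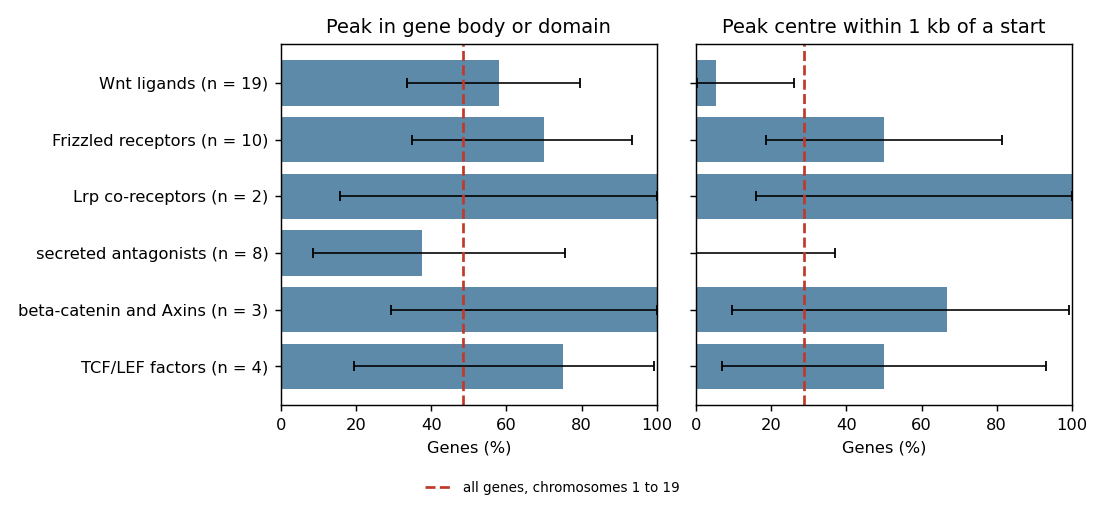
Share of genes in each role with a peak in the gene body or regulatory domain (left) and with a peak centre within 1 kb of a start (right), in %. Bars are shares, error bars are 95% exact binomial intervals that cover counting error only, and the dashed line is the share of all genes (48.4% left, 28.6% right); promoter peaks were present at 1 of 19 ligands and 5 of 10 Frizzled receptors.

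Of the 19 Wnt ligands, 11 had a peak (57.9%, interval 33.5 to 79.7) and 1 a promoter peak (5.26%, interval 0.133 to 26.0). The shares of all genes were 48.4% and 28.6%. The 24 peaks of the ligands were all centred in introns or outside protein-coding genes. Wnt5b, a ligand mostly linked to beta-catenin-independent signalling, had the promoter peak. It was 447 bp wide (chr6:119467292-119467738) and centred 304 bp from an internal transcript start, 76832 bp downstream of the 5′ end of the gene. A further peak in the Wnt5b body was centred 97 bp from the start of Fbxl14, a gene of an F-box protein that lies inside the Wnt5b locus.

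Wnt5a, the best known ligand of beta-catenin-independent signalling, had 4 peaks. The one closest to its start was 3052 bp wide (chr14:28504689-28507740) and was centred 1464 bp downstream in an intron. It was no promoter peak by its centre, yet it covered the 5′ end of the gene. Another pair lay 128018 and 145064 bp upstream in introns of the neighbouring gene Erc2, and the wider of them (2107 bp) held 4 TGGGAA and 3 CTTTGA cores.

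Wnt9a had 2 peaks in its body, 1807 and 23264 bp from its 5′ end, and the nearer of them held 4 TGGGAA and 2 CTTTGA cores. Wnt3, a ligand of the canonical branch, had 1 intronic peak of 2325 bp, 34941 bp into the gene. Wnt10a, also a canonical ligand, had a peak of 203 bp in its basal domain, 3481 bp upstream of its 5′ end. It further had the widest interval of all the genes described here, 5307 bp (chr1:74803087-74808393), which overlapped the 3′ end of the gene and held 9 TGGGAA and 6 CTTTGA cores.

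The remaining 6 ligands with a peak, Wnt2, Wnt2b, Wnt4, Wnt7a, Wnt7b and Wnt16, had peaks only in their extended domains. The closest peak was 7833 bp from the 5′ end for Wnt16, 17359 bp for Wnt2b, 28413 bp for Wnt7b, 29625 bp for Wnt7a, 68049 bp for Wnt4 and 91856 bp for Wnt2. Wnt7b, which with Wnt7a is a neural ligand of the brain vasculature, had 4 peaks between 28413 and 87990 bp upstream, and 3 of them were closer to the Wnt7b start than to any other gene. The Wnt4 peak was closer to Cdc42, the gene of a small GTPase.

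Wnt1, Wnt3a, Wnt6, Wnt8a, Wnt8b, Wnt9b, Wnt10b and Wnt11 had 0 peaks. Several of these ligands have a Wnt gene as neighbour, which shortens the domain of each. Wnt1 and Wnt10b, with domains of 25.3 and 16.6 kb, both had 0 peaks. In the other pairs the genes differed: Wnt10a had 3 peaks and Wnt6 0, Wnt9a had 2 and Wnt3a 0, and Wnt3 had 1 and Wnt9b 0. Wnt11, with a domain of 436 kb, lies on chromosome 7, where peaks were few.

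Of the 10 Frizzled receptors, the transmembrane receptors of Wnt proteins, 7 had a peak (70.0%, interval 34.8 to 93.3) and 5 a promoter peak (50.0%, interval 18.7 to 81.3). Both intervals hold the shares of all genes, 48.4% and 28.6%. The peak centre was 6 bp from the 5′ end of Fzd5, 124 bp from that of Fzd1, 318 bp from that of Fzd4, 413 bp from that of Fzd7 and 662 bp from that of Fzd8. Widths ran from 271 bp at Fzd1 to 2530 bp at Fzd5. All 5 peaks covered the 5′ end of their gene. TGGGAA occurred 4 times in the Fzd5 promoter peak and 1 time in that of Fzd7, and 0 times in those of Fzd1, Fzd4 and Fzd8.

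Fzd4, which also binds the ligand Norrin in retinal and brain vessels, had this as its only peak. Fzd2 had no promoter peak by its centre, but a peak of 3323 bp (chr11:102604168-102607490) covered its 5′ end and was centred in its coding exon, 1433 bp downstream. With 3 more peaks 19749 to 51491 bp downstream, Fzd2 had 5.39 peaks per 100 kb of domain, the highest density of the 46 genes, followed by Wnt10a with 3.89. All Fzd2 peaks also lay in the domain or body of Meioc, and those 39777 and 51491 bp downstream were closer to the start of Meioc. Fzd6, which acts in planar cell polarity, had 1 peak, 66999 bp upstream and 5126 bp from the start of Baalc. Fzd3, Fzd9 and Fzd10 had 0 peaks in domains of 113, 160 and 259 kb.

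Both Lrp co-receptors had a promoter peak and further peaks in their bodies. The Lrp6 promoter peak (521 bp, chr6:134566671-134567191) was centred 34 bp from the 5′ end and held 0 TGGGAA cores. That of Lrp5 (1744 bp, chr19:3685036-3686779) was centred 657 bp downstream and held the 2 cores shown above and 1 more. Lrp5 also had a peak of 4091 bp in an intron, 42500 bp into the gene, with 6 TGGGAA and 5 CTTTGA cores. Lrp6 had 5 peaks in all, of which 2 lay in introns at 38371 and 95305 bp, 1 lay 48192 bp upstream and 1 lay 141438 bp downstream of the 5′ end.

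Of the 8 secreted antagonists, 3 had a peak (37.5%, interval 8.52 to 75.5) and 0 had a promoter peak (interval up to 36.9%). Here too both intervals hold the shares of all genes, 48.4% and 28.6%. Sfrp2 had 4 peaks: 1 of 191 bp in its basal domain, 1823 bp upstream, and 3 that lay 184662 to 320041 bp upstream. The basal peak of Sfrp4 (533 bp, chr13:19619351-19619883) was 3487 bp upstream of Sfrp4 but 171 bp from the start of Epdr1, so that it is a promoter peak of that neighbour. Sfrp4 also had a peak 13300 bp downstream. Dkk3, a divergent Dkk protein, had 1 peak 43410 bp upstream, which was closer to Mical2. Dkk1, Dkk2, Dkk4, Sfrp1 and Sfrp5 had 0 peaks, although the domains of Dkk1 and Dkk2 spanned 844 and 1059 kb.

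Ctnnb1 and both Axins had peaks. Axin1, the scaffold of the complex that marks beta-catenin for breakdown, had a promoter peak of 815 bp (chr17:26138165-26138979), centred 116 bp upstream, with 1 TGGGAA core. Axin2 had a promoter peak of 2174 bp (chr11:108920207-108922380), centred 944 bp from the 5′ end and 43 bp from another transcript start. Its other peaks lay 167815 bp upstream and 64331 bp downstream. The upstream one lay in an exon of Cep112, 329 bp from a start of that gene, so that it is a promoter peak of Cep112. All 3 peaks that the rule assigned to Axin2, that at Cep112 included, held CTTTGA in their central 200 bp. None of them held TGGGAA there.

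Ctnnb1 had the most peaks of the 46 genes, 7. Of these, 6 lay 152502 to 346553 bp upstream, outside protein-coding genes, and 5 of the 6 were closer to Rpl14, a ribosomal protein gene at the far end of that interval. The remaining peak was 3538 bp wide (chr9:120933210-120936747) and lay in an intron, 5762 bp from the 5′ end and 1160 bp from the closest transcript start of Ctnnb1. It held 2 TGGGAA and 2 CTTTGA cores.

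Among the TCF/LEF factors, which carry beta-catenin to DNA, Tcf7l1 and Tcf7l2 had promoter peaks. The Tcf7l1 peak (573 bp, chr6:72789147-72789719) was its only peak and was centred 179 bp upstream. The Tcf7l2 peak (2694 bp, chr19:55741464-55744157) was centred 990 bp from the 5′ end and 468 bp from another transcript start. Tcf7l2 had 2 more peaks 98413 and 301256 bp upstream, both with TGGGAA in the central 200 bp. Tcf7 had 1 peak 31476 bp upstream, and Lef1 had 0 peaks in a domain of 536 kb.

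**Figure D3:**
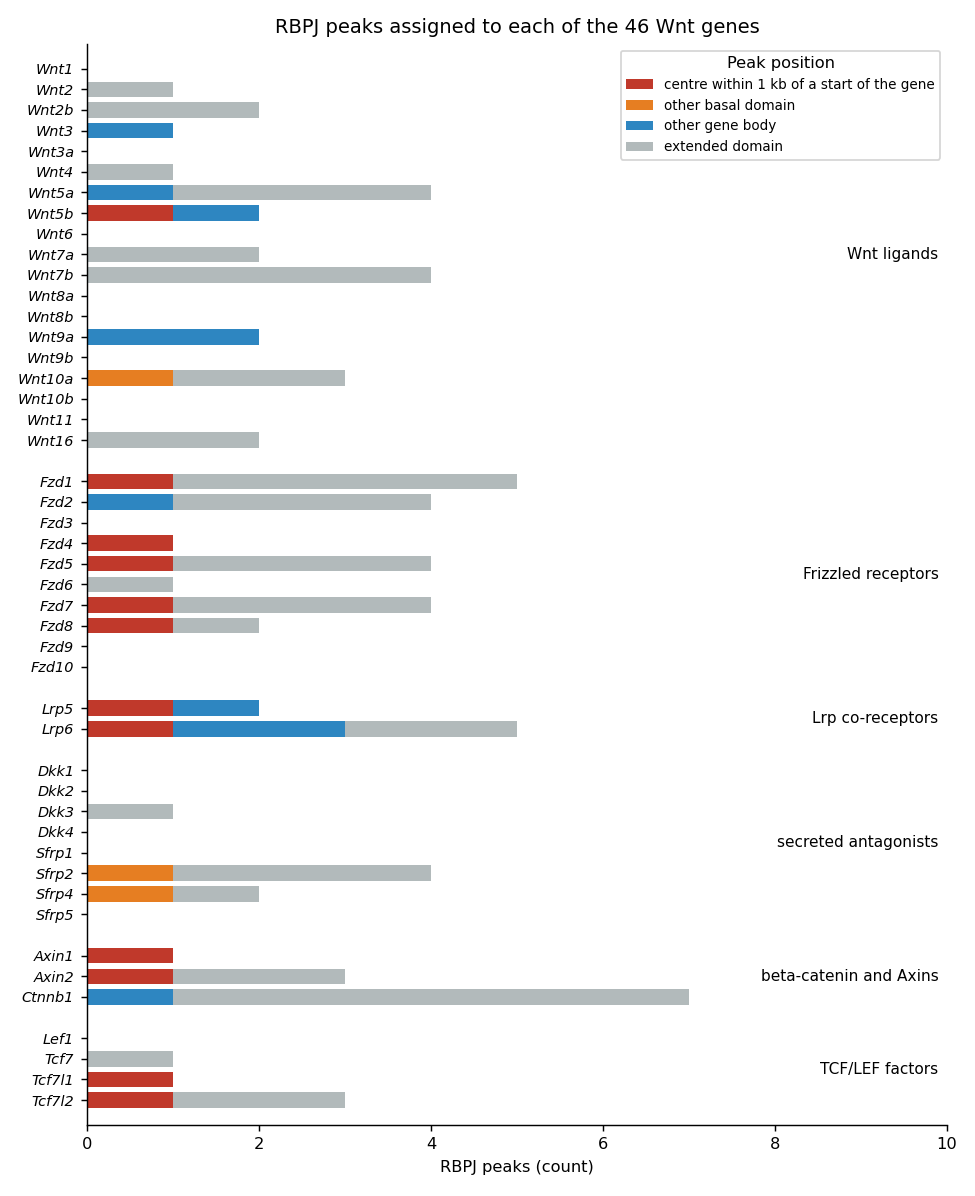
Number of RBPJ peaks assigned to each of the 46 Wnt genes (horizontal axis, count), by role and by the position of the peak (colour). Genes without a bar had 0 peaks; Ctnnb1 had 7, Fzd1 and Lrp6 5 each, and promoter peaks lie mainly with the Frizzled, Lrp, Axin and TCF/LEF genes.

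Few peaks of these genes lay at transcript starts. There were 75 peaks, each assigned to a single gene of the 46: 12 promoter peaks, 3 further peaks in basal domains, 10 in gene bodies and 50 in extended domains. Only 16 (21.3%) were centred within 1 kb of any protein-coding start, beside 49.6% of all peaks of chromosomes 1 to 19. Of these 16, 4 were at starts of other genes, namely Cdk14, Cep112, Epdr1 and Fbxl14. These shares are not counted alike. The rule ends an extended domain at the basal part of the next gene, so its peaks mostly lie away from other starts. Counted per gene, 26.1% of the 46 genes had a promoter peak, beside 28.6% of all genes. Long domains also hold few starts, and the part of the rule and of domain length in the share of peaks was not tested. By their centres, 37 peaks lay outside protein-coding genes, 29 in introns, 5 in UTRs and 4 in coding exons.

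The 50 peaks of the extended domains lay 5943 to 622080 bp from the 5′ end of the gene (median 89923 bp), with 31 upstream and 19 downstream. Assignment over such distances follows the rule alone. By closest start, 47 of the 75 peaks (62.7%) belonged to 1 of the 46 genes and 28 to another gene, and 62 peaks also lay in the domain or body of another gene. With the closest start as the only rule, 26 of the 46 genes (56.5%) had a peak, beside 36.4% of all genes.

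**Figure D4:**
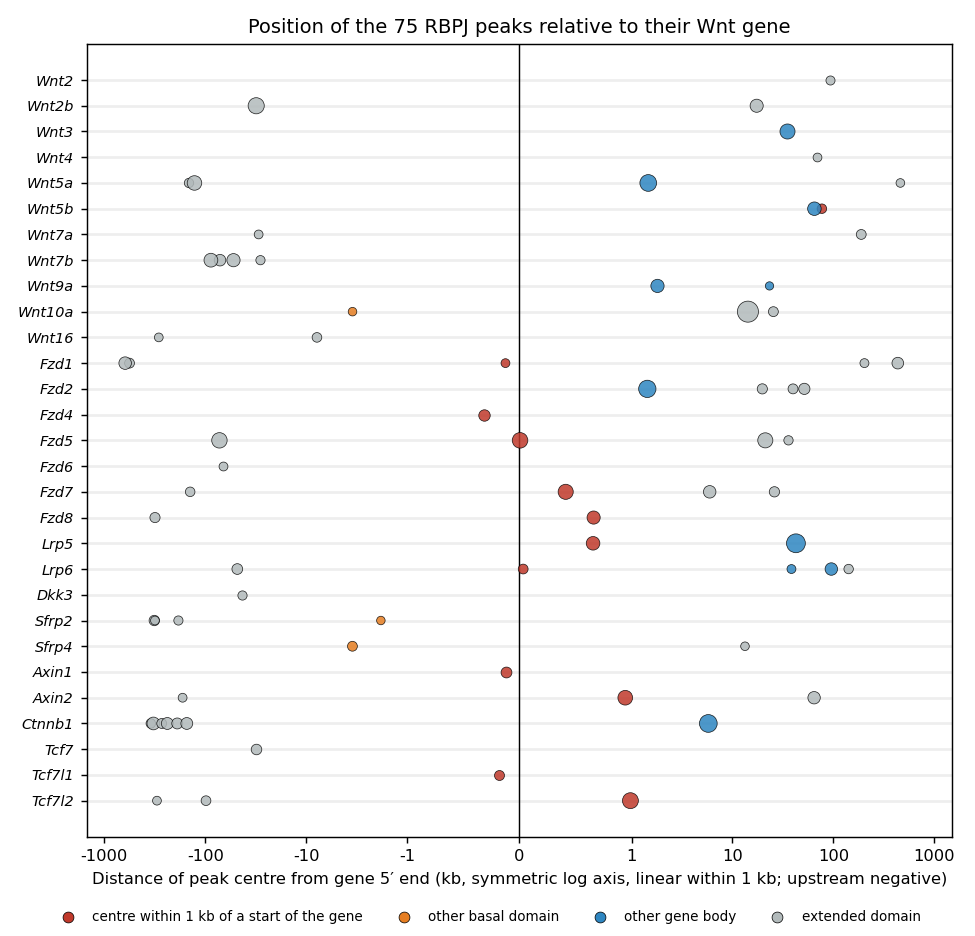
Distance of each of the 75 peak centres from the 5′ end of its gene, in kb on a symmetric log axis that is linear within 1 kb, with upstream negative. Each point is a peak, coloured by position and sized by width; the 12 promoter peaks (red) lie near 0 except that of Wnt5b, which sits at an internal start 76832 bp downstream.

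Widths of the 75 peaks ran from 144 bp in Wnt9a to 5307 bp at Wnt10a, with a median of 657 bp (quartiles 381 and 1588 bp), beside a median of 689 bp for all peaks. There were 14 of at least 2 kb (18.7%), beside 15.5% of all peaks. The authors merged peaks that lay close together, which can place the centre of a wide peak away from the DNA that RBPJ contacts. Counting any overlap with the 1 kb to either side of a start raised the genes with a promoter peak from 12 to 16 (34.8%, beside 30.4% of all genes), the added genes being Fzd2, Wnt5a, Wnt9a and Ctnnb1.

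Peaks were sparse on chromosomes 4 and 7, with 158 and 146, whereas other autosomes had 350 to 1016. Only 14.7% of the genes of chromosome 4 and 10.7% of those of chromosome 7 had a peak. Of the 46 genes, Wnt4 is on chromosome 4 and Wnt11, Fzd4 and Dkk3 are on chromosome 7, and 3 of these 4 had 1 peak each. Without the 2 chromosomes, 26 of 42 genes had a peak (61.9%), beside 55.3% of all genes.

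Of the 75 peaks, 18 held TGGGAA in their central 200 bp (24.0%, interval 14.9 to 35.3), beside 25.7% of all peaks, and 49 held it anywhere (65.3%), beside 64.8%. Of the 16 peaks within 1 kb of a start 1 held it centrally, the promoter peak of Tcf7l1 (6.25%, interval 0.158 to 30.2), beside 16.0% of all such peaks. Of the 59 others 17 did (28.8%, interval 17.8 to 42.1), beside 35.3%. The other TGGGAA cores of promoter peaks shown above, namely the Tcf7l1 core farther from the gene and those at Lrp5, Axin1 and Fzd5, lay 123 to 776 bp from the centre. Counted by length, the 75 peaks held 1.27 cores per kb, and all peaks held 1.25. The longer core GTGGGAA was central in 4 peaks (5.33%, interval 1.47 to 13.1), beside 9.24%.

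Paired RBPJ sites, where Notch complexes can bind as dimers, were searched over whole peaks as a TGGGAA or TGAGAA core followed, after a gap of 11 to 21 bp, by either core on the opposite strand. There were 0 in the 75 peaks, and 288 of all peaks of chromosomes 1 to 19 (2.63%) held a pair.

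CTTTGA was present in the central 200 bp of 16 of 75 peaks (21.3%, interval 12.7 to 32.3), beside 9.25% of all peaks. The shares were 18.8% of the 16 peaks near a start (interval 4.05 to 45.6), beside 6.20%, and 22.0% of the 59 others (interval 12.3 to 34.7), beside 12.3%. Over whole peaks the gap was smaller: 31 peaks held it (41.3%), beside 35.4%, and the densities were 0.674 and 0.584 cores per kb. Such a share is a count of letters in the peaks and was not tested. Median GC content of the central windows was 53.0% for the 75 peaks and 55.5% for all peaks. Both cores were in the central window of 3 peaks (4.0%), beside 2.59%.

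**Figure D5:**
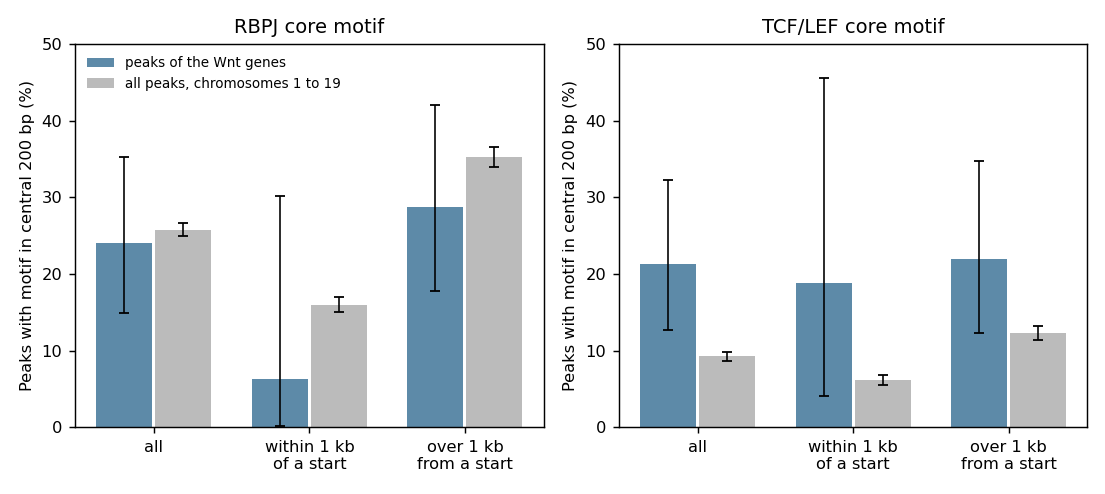
Share of peaks with TGGGAA (left) and CTTTGA (right) in the central 200 bp, in %, for all peaks, those within 1 kb of a start and those farther away. Blue bars are the 75 peaks of the Wnt genes, grey bars all peaks of chromosomes 1 to 19, and error bars 95% exact binomial intervals for counting error; CTTTGA reached 21.3% against 9.25%, and TGGGAA 24.0% against 25.7%.

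The other genes of the pathway were taken from a list of 67, on any chromosome. Of these, 46 had a peak (68.7%) and 29 a promoter peak (43.3%), beside 48.4% and 28.6% of all genes of chromosomes 1 to 19. In the cytoplasm 10 of 17 had a promoter peak: the Dishevelled genes Dvl2 and Dvl3, which relay the receptor signal, Apc and Gsk3b of the breakdown complex, the casein kinase genes Csnk1a1, Csnk1d, Csnk1e and Csnk1g1, the tankyrase gene Tnks2, whose product destabilises Axin, and Btrc, which targets beta-catenin for ubiquitination. In the nucleus 7 of 12 did: the co-activator genes Bcl9, Bcl9l and Pygo2, the co-repressor genes Tle1, Tle3 and Tle4, and the target gene Myc. Tle3 and Myc had 14 peaks each.

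At the cell surface and outside the cell, promoter peaks were present at 4 of 10 agonist genes and their regulators, namely Rspo2, the R-spondin receptor genes Lgr4 and Lgr5, and Znrf3, which removes Frizzled from the surface. They were also present at Ryk and Ptk7 of 8 other receptors, at Wif1, Apcdd1 and Tpbg of 8 other antagonists, and at Notum, whose product removes the lipid of Wnt proteins, of 3 secretion genes. All 9 planar polarity genes had a peak, with promoter peaks at Vangl2 and Prickle1. The 21 genes without a peak were Porcn, Rspo1, Rspo4, Ndp, Rnf43, Kremen2, Adgra2, Reck, Frzb, Sost, Sostdc1, Dkkl1, Draxin, Dvl1, Gsk3a, Amer1, Nkd1, Pygo1, Ctnnbip1, Tle2 and Sp5. Of these, Rspo1, Reck, Draxin, Dvl1 and Ctnnbip1 are on chromosome 4 and Dkkl1 and Gsk3a on chromosome 7, where peaks were few. Porcn, Ndp and Amer1 are on chromosome X, outside the share of all genes. Without chromosomes 4 and 7, 43 of 57 of the other pathway genes had a peak (75.4%), beside 55.3% of all genes.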

How the data were processed

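Reads were mapped by the authors to GRCm38 (bowtie), who then removed duplicates, called peaks with MACS2 and PeakRanger, merged close peaks, kept regions that several calls shared and left out blacklisted ones. Deposited values, per the file headers and labels, are peak starts and ends in bp, read as counted from 1, and all other units were computed here. The peak lists give no score and no depth. Merging widens peaks, and a consensus list hides differences between replicates.

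Genes, transcript starts (54327) and domains (21938 protein-coding genes) came from GENCODE release M21. Chromosome lengths of the build were checked, and 0 peaks ran past an end. Motifs were searched on both strands. No test was run: shares are set beside those of all genes or peaks with 95% exact (Clopper-Pearson) intervals, which cover counting error only and treat genes as independent. The genes and lists were chosen with earlier results of these data known. Genes named in full had a promoter, basal or gene body peak or the most peaks; others are given by distance or name. Alternatives covered assignment, distance, peak width and motif. Functions were tested on simulated data. Python 3.11.15, pandas 2.3.3, scipy 1.17.1, pysam 0.24.0 and matplotlib 3.10.9 were used.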

Additional observations from a re-analysis of the deposited data

How the results depend on the processing

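Of 43 alternative settings, 33 left the value within the limits set for a count (1.5 times) or share. Counting gene bodies alone, 13 of the 46 genes had a peak (28.3%, beside 26.3% of all genes), and under the other settings 24 to 29: 24 with peaks of at least 500 bp (52.2%, beside 36.2%) and 26 with extension limited to 50 kb (56.5%, beside 42.6%). Promoter peaks were present at 10 genes within 500 bp (21.7%, beside 24.7%) and at 17 within 2 kb (37.0%, beside 30.5%), so the side of the all-gene share on which the 46 genes fall turns with the distance. Peaks of at least 500 bp left 48 of the 75 peaks and 9 with TGGGAA in the centre (18.8%, beside 17.1% of all such peaks). TGGGAA was present in 10 peaks in the central 100 bp (13.3%, beside 15.3%) and in 49 over whole peaks (65.3%, beside 64.8%), GTGGGAA in 4 (5.33%, beside 9.24%), and TGGGAA or TGAGAA in 29 (38.7%, beside 35.7%). CTTTGA was present in 6 peaks in the central 100 bp (8.0%, beside 4.80%) and in 31 over whole peaks (41.3%, beside 35.4%), and CTTTGAT or CTTTGAA in 7 (9.33%, beside 4.58%). By construction the motif counts depend on the window, on the motif or motifs searched and on the peaks that are kept. Leaving out either replicate gave 29 of the 46 genes and 46 of the 67 other pathway genes. These settings are counted among the 33, but they could change nothing, since the files are identical. No paired analysis was possible because the deposited RBPJ replicates share a single list of peaks and groups of samples were not compared. Without scores, a missing peak is no more than a site not called.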
